A study of Homo sapiens with 32 samples.

Results

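The genes described here are 41 haematopoietic and lymphocyte identity genes, chosen by a list of names: T cell, B cell, myeloid, stem and progenitor cell genes, lymphoid transcription factors, leukocyte surface receptors and the selectin SELP. Of the 41 names, 40 matched a protein-coding gene of the RefSeq annotation of GRCh38.p14 on chromosomes 1 to 22 and X, out of 19974 such genes, and PAX5-AS1 matched none. They were followed in H3K27me3 maps of MDA-MB-231 cells, a mesenchymal-like line from a triple-negative breast cancer and so not of blood origin. H3K27me3 is trimethylation of lysine 27 of histone H3, a mark of repressed chromatin.

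The line was mapped by ChIPmentation, a chromatin immunoprecipitation in which the sequencing adapters are inserted by a transposase. Groups of 4 H3K27me3 libraries each were given no treatment (control), cells given an EZH2 inhibitor (labelled EPZ, and EP7 in the sample titles), cells given a p38 MAP kinase inhibitor (labelled P38i) and cells given both (labelled combo), all at 24 h. The labels give no dose and no identity for P38i beyond that name, and all groups are the same line with no engineered allele named. They do not say whether the libraries of a group came from separate cultures, and p-values then measure only a spread that may be technical.

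Polycomb repressive complex 2, whose catalytic subunit is EZH2, writes H3K27me3 in broad domains over genes of lineages that a cell does not use. In blood cells many of the genes described here are active, and in cells of other tissues several of them, such as those of the T cell receptor complex, are silent, with or without this mark. An EZH2 inhibitor blocks new methylation, and existing marks are lost by dilution at division and by demethylation, so a short exposure need not clear them.

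The unit throughout is the percent of a gene, taken with 2.5 kb on each side, that lay inside the authors' H3K27me3 islands (enriched regions) in a library. An island list has no height, so a value says how much of a gene was called, not how much mark it carried, and read depth is unknown. The libraries held 53290 to 85194 islands over 474 to 674 Mb. With the EZH2 inhibitor, covered length averaged 546 ± 50.7 Mb (8 libraries, EPZ and combo). In the 8 without it the average was 605 ± 67.1 Mb (SD, n = 8 each). The ranges, 474 to 615 Mb and 484 to 674 Mb, overlapped, and the difference was not tested. The part of covered length in the results below was not tested apart from the alternatives named beside them. In EPZ 1, control 4 and P38i 2 the islands were narrowest, with medians of 3.4, 4.0 and 4.4 kb against 4.6 to 7.4 kb elsewhere. Genes known to be active in this line were free of islands: 10 of 11 (among them VIM, CD44, AXL and CAV1) had none in any library, and MSN averaged 3.59%. Of 8 luminal epithelial genes, PGR averaged 95.4%, FOXA1 56.6% and ESR1 10.2%, and GATA3, CDH1, KRT8, KRT18 and KRT19 had no island.

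Before the values, the sequence just upstream of 6 start sites is shown, because the genes of the list differed in whether an island reached the start and in how many CpG dinucleotides lay before it. Each is the 120 bases before the start of the RefSeq promoter entry, 5′ to 3′ on the gene's strand, from GRCh38.p14, with CpG dinucleotides in capitals. The 6 were picked after their coverage was seen. They are GPR65, whose islands changed with treatment, CD2, covered nearly everywhere, and CTLA4, covered over 90.5% on average (range 57.2 to 100%). The others are IKZF1, covered across its body but seldom at its start, and MYB and GPR18, which had no island.
GPR65, chr14:88005015-88005134, plus strand: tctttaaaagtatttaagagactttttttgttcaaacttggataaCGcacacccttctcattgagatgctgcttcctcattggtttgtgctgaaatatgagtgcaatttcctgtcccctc
CTLA4, chr2:203867651-203867770, plus strand: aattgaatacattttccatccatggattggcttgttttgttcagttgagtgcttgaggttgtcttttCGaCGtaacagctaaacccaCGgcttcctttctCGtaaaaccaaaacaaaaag
CD2, chr1:116754310-116754429, plus strand: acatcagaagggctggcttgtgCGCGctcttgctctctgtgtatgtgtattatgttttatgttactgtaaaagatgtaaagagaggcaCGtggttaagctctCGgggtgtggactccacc
IKZF1, chr7:50304596-50304715, plus strand: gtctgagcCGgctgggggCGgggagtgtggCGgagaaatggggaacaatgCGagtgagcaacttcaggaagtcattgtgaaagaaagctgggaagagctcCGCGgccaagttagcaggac
MYB, chr6:135181188-135181307, plus strand: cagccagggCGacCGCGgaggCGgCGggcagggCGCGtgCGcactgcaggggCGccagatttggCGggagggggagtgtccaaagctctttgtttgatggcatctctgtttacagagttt
GPR18, chr13:99258380-99258499, minus strand: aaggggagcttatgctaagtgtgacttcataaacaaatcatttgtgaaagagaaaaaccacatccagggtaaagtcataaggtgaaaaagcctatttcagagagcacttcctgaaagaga

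These stretches held 1 CpG in GPR65, 4 in CTLA4, 4 in CD2, 6 in IKZF1, 10 in MYB and none in GPR18. Over 15813 promoters of the same table, 92.8% held at least 1 CpG in the same 120 bases and the median was 10. A promoter entry was found for 27 of the 40 genes. Over the 250 bases before the start, those 27 had a median of 4 CpG against 17 over all promoters. Across all genes of that table the count fell with coverage: the median was 19 CpG in genes with no island in any library, 16 below 5% coverage, 10 from 5 to 50% and 4 at 50% or more. The 9 listed genes at 50% or more also had a median of 4 (range 1 to 28), and the 11 without an island had a median of 6 (range 0 to 34). MYB (34 CpG) and BTK (24), both without islands, and IKZF1 (28) were the CpG-rich ends of these groups. These counts are descriptions of sequence, and no test was made of them.

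The list as a whole was more often covered than genes in general. Of its 40 genes, 14 had no island in any of the 16 libraries (35%, against 68.0% of all 19974 genes), 4 averaged under 5%, 18 averaged 5 to 95%, and 4 averaged more than 95% (10%, against 1.76% of all genes). An average of at least 50% was reached by 14 (35%, against 10.6% of all). A wider list of 111 other haematopoietic genes, chosen by knowledge of the lineages, stood between: 49 had no island (44.1%) and 32 averaged at least 50% (28.8%). Averaged over the 40 genes, coverage was 37.6% ± 3.08 in control, 31.9% ± 1.84 in EPZ, 40.4% ± 2.80 in P38i and 34.5% ± 4.25 in combo (SD, n = 4 each). Over all genes the same order held, at 11.4% ± 1.26, 10.1% ± 0.844, 12.4% ± 1.13 and 10.9% ± 0.844. Because both lists were put together with earlier results of these data known, these figures describe them and support nothing beyond them.

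**Figure D1:**
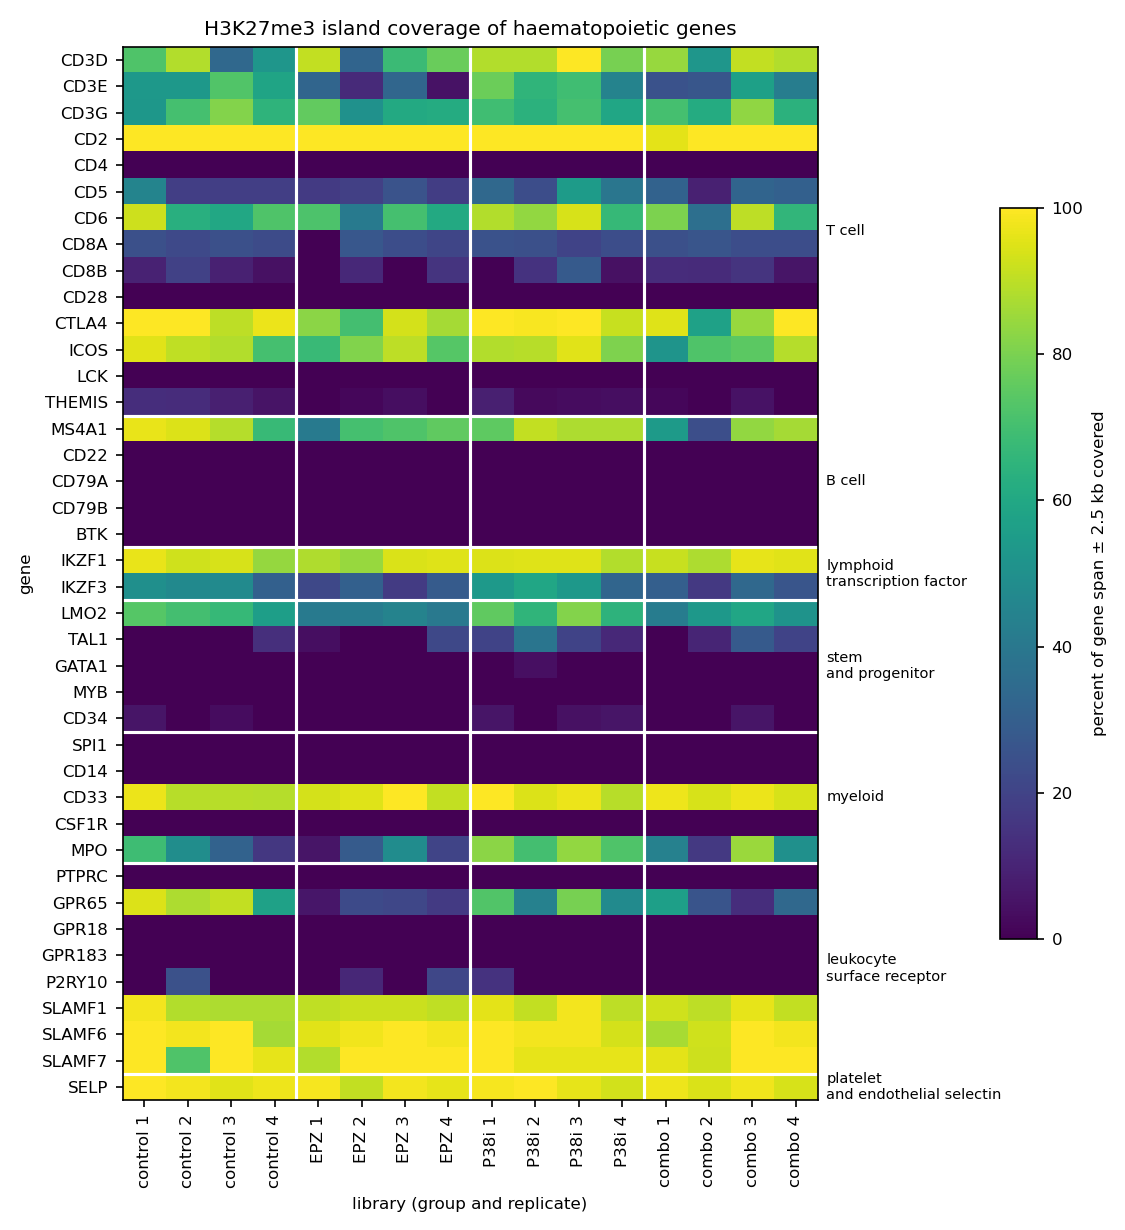
Percent of each gene (with 2.5 kb on each side) covered by H3K27me3 islands, for 40 genes in rows grouped by class and 16 libraries in columns grouped by treatment. The 14 rows of 0 (CD4, CD28, LCK, PTPRC and others) stand beside rows near 100% in every group (CD2, CD33, IKZF1, SLAMF1, SELP), and GPR65, CD3E, LMO2 and IKZF3 are darker in the EPZ and combo columns.

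The listed T cell genes averaged 42.3% over the 16 libraries, against 28.5% for myeloid, 15.0% for B cell and 14.4% for stem and progenitor genes. Of 14 T cell genes, 3 had no island (the coreceptor CD4, the costimulatory receptor CD28 and the kinase LCK) and 6 averaged at least 50%. CD2, an adhesion receptor of T and NK cells (chr1:116754430-116769229), was covered over 100% of its window in 15 libraries and 96.0% in combo 1. CTLA4, the inhibitory receptor that competes with CD28 (chr2:203867771-203873965), was covered over 100, 100, 89.9 and 97.1% in control replicates 1 to 4, 82.8, 70.3, 93.5 and 86.3% in EPZ, 100, 98.8, 100 and 91.7% in P38i, and 95.3, 57.2, 84.5 and 100% in combo. The EPZ and combo values reached lower, and the groups overlapped. ICOS, an inducible costimulator, ranged from 51.7 to 95.5%. CD6, a scavenger receptor of the T cell surface, ranged from 36.5 to 94.0%, and its neighbour CD5 from 9.26 to 54.9%. CD8A ranged from 0 to 27.1% and CD8B from 0 to 28.3%. These encode the chains of the CD8 coreceptor and lie 6.97 kb apart on chromosome 2. THEMIS, a regulator of T cell selection and a long gene of 222 kb, averaged 4.37% (range 0 to 12.95%).

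Neighbours could differ sharply. CD28, CTLA4 and ICOS lie in 1 cluster on chromosome 2, with 129 kb between CD28 and CTLA4 and 62.8 kb between CTLA4 and ICOS. CD28 had no island in any library, and the island nearest its start was 128 to 160 kb away, while CTLA4 averaged 90.5% and ICOS 81.2%. The islands over CTLA4 were local, since the 100 kb on each side were covered over only 27.3%. Around CD2, in contrast, 94.8% of the flanking 100 kb was covered, and around SLAMF1, SLAMF6 and SLAMF7 87.5 to 92.7%, so that those genes sat inside long covered stretches.

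**Figure D2:**
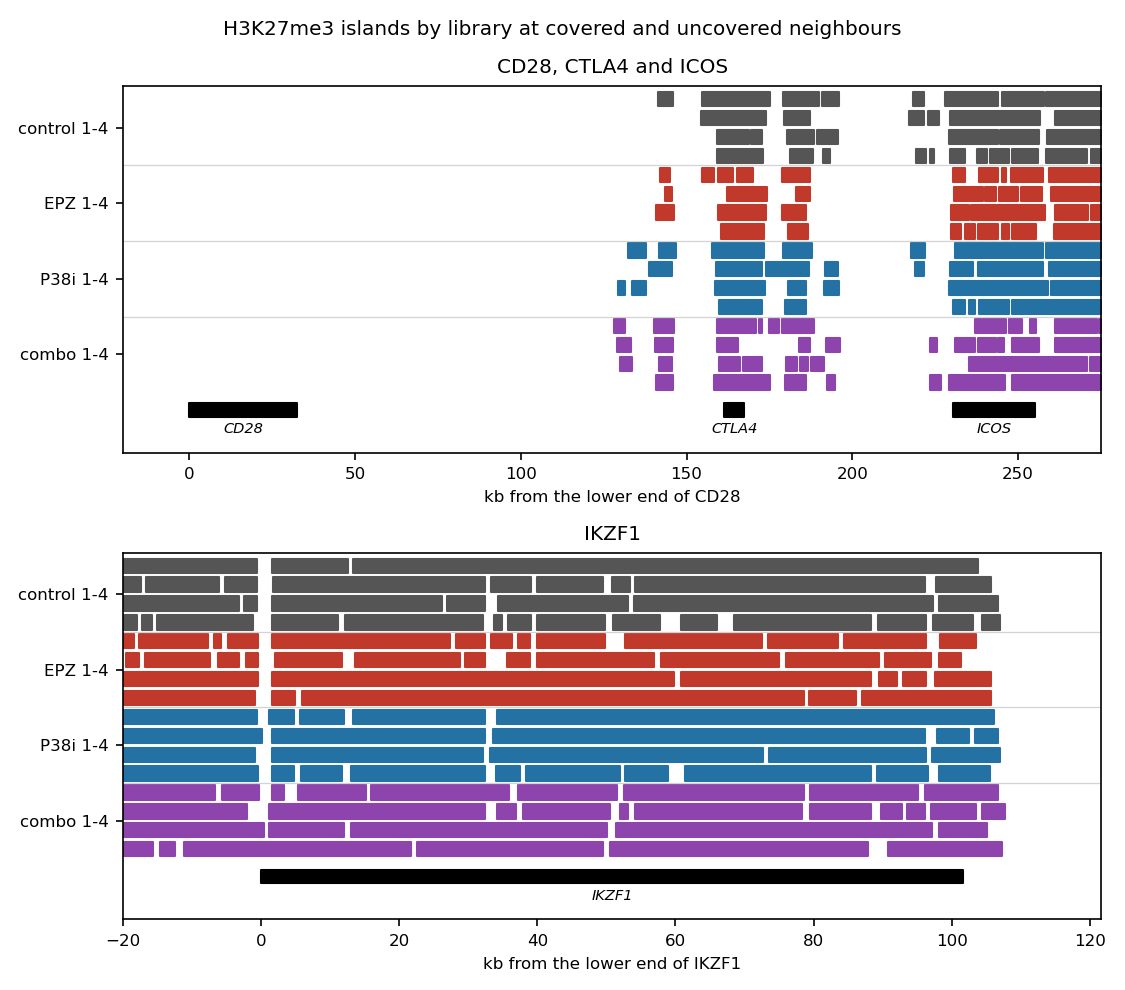
Islands of each library (bars, 1 row per library, replicates 1 to 4 from top within each group) around CD28, CTLA4 and ICOS and around IKZF1, with distance in kb from the lower-coordinate end of CD28 or IKZF1 and the genes as black bars. CD28 has no island within 128 kb of its start while CTLA4 and ICOS carry islands in all 16 libraries, and IKZF1 is covered over 84.2 to 96.8%, with a short gap near its lower-coordinate end in most libraries.

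The listed B cell genes were few and mostly uncovered. Of the 5 found, CD22, CD79A, CD79B and BTK, which encode a coreceptor, both signalling chains of the B cell receptor and a kinase downstream of it, had no island in any library. Around CD22 and CD79A the flanking 100 kb were covered over 42.5 and 34.1%, so islands were near but not on these genes. The only covered B cell gene was MS4A1, which encodes CD20 (chr11:60455847-60470752). It was covered over 96.7, 94.7, 88.7 and 67.3% in control, 41.2, 70.3, 72.3 and 75.6% in EPZ, 75.4, 90.7, 87.7 and 87.7% in P38i, and 54.5, 24.1, 83.7 and 86.4% in combo. The values of EPZ and combo were lower on average, with combo 2 the lowest of all 16, and each group overlapped with another. The low cover of the listed B cell genes did not extend to the wider list, where 6 of 20 B cell genes had no island (30%) and 9 averaged at least 50% (45%), against 12 (42.9%) and 5 (17.9%) of 28 T cell genes.

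The lymphoid transcription factors of the Ikaros family were both covered. IKZF1, which encodes Ikaros (chr7:50303455-50405101), held 96.8, 92.7, 93.8 and 84.2% in control, 88.0, 84.8, 94.2 and 95.3% in EPZ, 94.6, 95.1, 95.3 and 88.6% in P38i, and 91.7, 87.6, 96.2 and 95.7% in combo. No group stood apart. Its start was an exception to this cover: islands touched the promoter window (250 bases before to 50 after the start) in 4 of 16 libraries, 1 of P38i and 3 of combo, and enclosed it in 1, although an island always lay within 0.685 kb of that start, which is inside the gene span. The 250 bases before that start held 28 CpG, and the 120 bases shown above held 6 of them. IKZF3, which encodes Aiolos, averaged 36.3% and is described with the treated groups below.

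Among stem and progenitor genes only LMO2, which bridges transcription factors in blood stem cells, averaged over 50% (57.9%). TAL1, its partner in progenitors, was covered over 0 to 39.0%, the erythroid factor GATA1 over 4.02% in P38i 2 alone, and CD34, a surface marker of progenitors, over at most 5.76% in 6 libraries. MYB, a regulator of progenitor growth, had no island. The flanking 100 kb of MYB was covered over 13.9% without the EZH2 inhibitor and 3.04% with it.

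Of 5 myeloid genes, the master regulator SPI1, the endotoxin coreceptor CD14 and the growth factor receptor CSF1R had no island. CD33, a sialic acid binding receptor of myeloid cells (chr19:51211076-51240016), was covered over 97.1, 89.4, 89.4 and 88.8% in control, 93.5, 95.3, 100 and 90.8% in EPZ, 100, 94.7, 97.1 and 89.4% in P38i, and 97.6, 94.1, 97.1 and 94.1% in combo. All groups overlapped at this high level. MPO, the peroxidase of neutrophil granules (chr17:58269855-58280935), was the most variable: 68.9, 49.0, 31.6 and 16.4% in control, 5.48, 28.8, 48.8 and 20.4% in EPZ, 82.6, 70.2, 83.8 and 72.6% in P38i, and 44.0, 16.7, 85.1 and 50.03% in combo. The 4 P38i libraries all lay above the 4 control libraries, as in 3.24% of all genes tested below. The lowest P38i value was 70.2% and the highest control value 68.9%, and the difference did not pass the test described below. Combo 3 lay with the P38i libraries at 85.1%.

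Of the 8 leukocyte surface receptors, PTPRC (the pan-leukocyte phosphatase CD45), GPR18 and GPR183 (receptors for lipid ligands, 36.2 kb apart on chromosome 13) had no island, and P2RY10 averaged 4.50%, with islands in 4 libraries. The 3 SLAM family genes, receptors of lymphocyte interaction, were covered almost throughout: SLAMF6 averaged 96.5% (range 86.7 to 100%) and SLAMF7 95.9% (72.4 to 100%, lowest in control 2). SLAMF1 (chr1:160608106-160647044) held 98.2, 88.6, 87.7 and 87.7% in control, 90.4, 91.8, 91.8 and 90.4% in EPZ, 95.9, 90.9, 98.2 and 89.99% in P38i, and 92.7, 89.998, 96.4 and 90.9% in combo. No group was separate from the others. SELP, the P-selectin of platelets and endothelium, averaged 96.7% (90.8 to 100%). GPR65, a receptor that immune cells use to sense acid, varied most with treatment and is described next.

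Start sites followed the same division. Of the 27 genes with a promoter entry, 10 (37.0%) had an island over the promoter window in at least 1 library, against 14.7% of all 15812 promoters with coordinates. The windows of CD2, SLAMF1 and SELP were touched in all 16 libraries, those of SLAMF6 and CTLA4 in 15, CD33 in 14, ICOS in 9, GPR65 in 7, CD3D in 6 and IKZF1 in 4. GPR65 was reached in 4 of 4 control, 3 of 4 P38i and none of the 8 EPZ and combo libraries, so its CpG-poor start, shown above, lay outside islands wherever the EZH2 inhibitor was given. This was counted and not tested, and no share of all promoters with such a split is given.

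The first treatment question was what the EZH2 inhibitor did to these genes. Compared over both backgrounds, that is 8 libraries with it (EPZ and combo) against 8 without (control and P38i), GPR65, LMO2, CD3E and IKZF3 were less covered and none was more covered. The test was limma on the percent covered, in 1 fit of the 16 libraries over the 4105 genes averaging 5 to 95%, with Benjamini-Hochberg adjustment over all of them and a threshold of 0.05. These genes were 4 of the 18 listed genes that entered the test (22.2%), where 15.6% of all tested genes were lower and 16.5% called in either direction. The members' median difference was -10.5 percentage points, against -4.84 over all tested genes, and 17 of 18 differences were negative (94.4%, against 78.0% of all). A share of 4 in 18 lies near that background, and the fall is one that many genes outside the list had too. The call of all 4 ended when each library was cut to its widest islands up to the covered length of the shortest list, which leaves out more narrow islands in libraries that cover more. Without the 3 libraries of narrowest islands, an alternative chosen after seeing the data, the same 4 genes passed.

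GPR65 (chr14:88005135-88014811) was covered over 94.5, 87.7, 90.7 and 57.2% in control and 6.21, 22.6, 21.2 and 17.1% in EPZ. It was covered over 72.7, 44.1, 79.6 and 47.7% in P38i and 56.6, 25.9, 13.02 and 33.8% in combo. The EPZ libraries lay below every control and P38i library, and combo 1 was the only library with the EZH2 inhibitor above the lowest without it (P38i 2). No share of all tested genes with such partial splits is given, for GPR65 or for LMO2, CD3E and IKZF3 below. With the inhibitor the mean was 24.6%, without it 71.8%, a difference of -47.2 points (SE 7.49, adjusted p = 0.00214). With lists of equal length it was -20.5 points (adjusted p = 0.291).

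LMO2 (chr11:33858576-33892076) was covered over 73.6, 69.9, 66.8 and 55.9% in control and 41.04, 42.1, 44.7 and 40.3% in EPZ. It was covered over 75.8, 65.3, 81.3 and 64.7% in P38i and 41.9, 53.3, 59.0 and 51.2% in combo. The EPZ libraries were close together and below every control and P38i library, and combo 3 alone reached into the range without the inhibitor. The means were 46.7% with and 69.2% without it, a difference of -22.5 points (SE 3.67, adjusted p = 0.00241). With lists of equal length the difference was -19.8 points (adjusted p = 0.0827).

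CD3E (chr11:118304730-118316173) encodes the epsilon chain of CD3, the signalling part of the T cell receptor. Its coverage was 53.3, 53.3, 72.8 and 58.2% in control, 32.7, 11.99, 32.8 and 4.69% in EPZ, 77.7, 65.5, 69.1 and 44.8% in P38i, and 25.4, 26.6, 57.0 and 42.4% in combo. Of the libraries with the inhibitor, 7 of 8 lay below the lowest without it, and combo 3 did not. The means were 29.2 and 61.9%, a difference of -32.7 points (SE 6.41, adjusted p = 0.00531), and -11.6 points with lists of equal length (adjusted p = 0.547).

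IKZF3 (chr17:39757715-39864312) was covered over 49.8, 47.3, 47.9 and 30.8% in control, 21.5, 30.6, 17.6 and 28.9% in EPZ, 54.0, 59.3, 53.2 and 32.8% in P38i, and 30.3, 16.5, 33.7 and 26.5% in combo. Again 7 of 8 libraries with the inhibitor lay below the lowest without it, which was control 4, with combo 3 the exception. Combo 3 had the largest covered length of the libraries with the inhibitor (615 Mb). Control 4 had the smallest of those without it (484 Mb). The part of these lengths in the exceptions was not tested. The means were 25.7 and 46.9%, a difference of -21.2 points (SE 4.46, adjusted p = 0.00718), and -8.25 points with lists of equal length (adjusted p = 0.264). None of the 4 genes had fully separate sides, as 1.56% of all tested genes did.

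**Figure D3:**
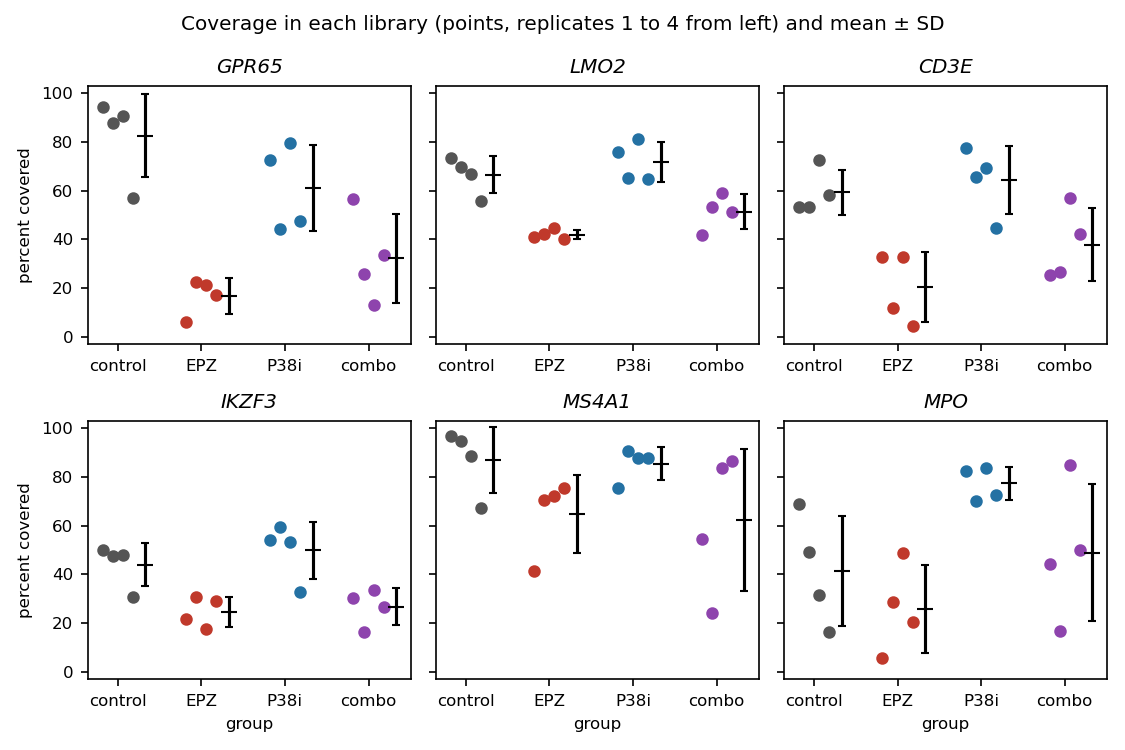
Percent covered in each library (points, replicates 1 to 4 from left) with mean and SD by group (n = 4) for the 4 genes that passed the test of the EZH2 inhibitor and for MS4A1 and MPO, which did not. GPR65, LMO2, CD3E and IKZF3 are lower in EPZ than in control without overlap, while MS4A1 and MPO spread widely in combo, from 24.1 to 86.4% and from 16.7 to 85.1%.

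The other members did not pass this test. MS4A1 differed by -22.6 points (adjusted p = 0.0829), MPO by -22.0 (0.129), CTLA4 by -13.5 (0.0913) and ICOS by -12.3 (0.120). MS4A1 passed without combo 3 (adjusted p = 0.0495), without combo 4 (0.0486) or without control 4 (0.0463), MPO without combo 3 (0.0388), CTLA4 without combo 4 (0.0486) and ICOS without control 4. With covered length as a covariate the differences of MS4A1 and MPO were -12.3 and -8.14 points, and that of CTLA4 was -8.95 without combo 2. IKZF1 at -0.94, SLAMF1 at -0.34 and CD33 at 2.09 points were close to 0. The sign for IKZF1 and SLAMF1 changed with the covered length of each library as a covariate. THEMIS averaged under 5% and did not enter the test; it was covered over 12.95, 12.9, 8.64 and 5.29% in control and 0, 1.76, 3.79 and 0% in EPZ.

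Coverage was also read along each window, cut into 4 equal sections numbered from the lower coordinate. In section 1, GPR65 was covered over 81.4% in control, 0% in EPZ, 75.0% in P38i and 10.7% in combo on average, and in section 2 over 85.4, 0, 50.5 and 65.0%. Section 3 held 76.3 to 98.9% in control and, in EPZ, 0% apart from 76.3% in EPZ 2. Section 4 held 38.1 to 100% in control and 13.9 to 84.8% in EPZ. The widest island touching the gene had a median of 40.9 kb in control, 8.1 kb in EPZ, 70.2 kb in P38i and 4.6 kb in combo. The 100 kb on each side of GPR65 were covered over 52.9% without and 51.2% with the inhibitor. This was a difference of -1.72 points beside the -47.2 of the gene. The window is 14.7 kb, much shorter than the flanks, so points of the 2 are not like amounts of sequence. A loss close to the gene would move the flank percent little. Whether the difference ended at the window was not tested.

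LMO2 was covered in section 3 in every group (88.2% in control, 82.6% in EPZ, 95.6% in P38i and 89.5% in combo) and less so in section 2, which averaged 45.6% in control, 46.7% in P38i and 17.2% in combo and was at 0% in all EPZ libraries. In section 1 LMO2 held 54.3 to 87.5% in control and 17.9 to 41.6% in EPZ. It held 46.0 to 86.2% in P38i and 7.53 to 58.4% in combo. The flanks of LMO2 were lower as well, at 31.5% with and 47.3% without the inhibitor. Section 4 of IKZF3 held 77.1% in control, 43.0% in EPZ, 69.0% in P38i and 50.2% in combo. Its flanks held 11.4% without and 4.91% with the inhibitor. These sections were described after the gene calls were known and were not tested.

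In CD3E section 1 held 88.9% in control, 28.7% in EPZ, 91.0% in P38i and 82.5% in combo, and section 3 held 99.0, 44.1, 97.8 and 45.1%. Its neighbours CD3D and CD3G, which encode the delta and gamma chains of the same complex, behaved otherwise. CD3D lies 22.8 kb from CD3E, and CD3D and CD3G are 1.64 kb apart with overlapping windows, so their values share sequence. CD3D was covered over 73.1% with and 75.5% without the inhibitor (difference -2.42 points, SE 9.25, adjusted p = 0.887) and CD3G over 66.1 and 66.6% (-0.49 points, SE 4.79, adjusted p = 0.959). Whether CD3E differed from its neighbours in response was not tested.

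**Figure D4:**
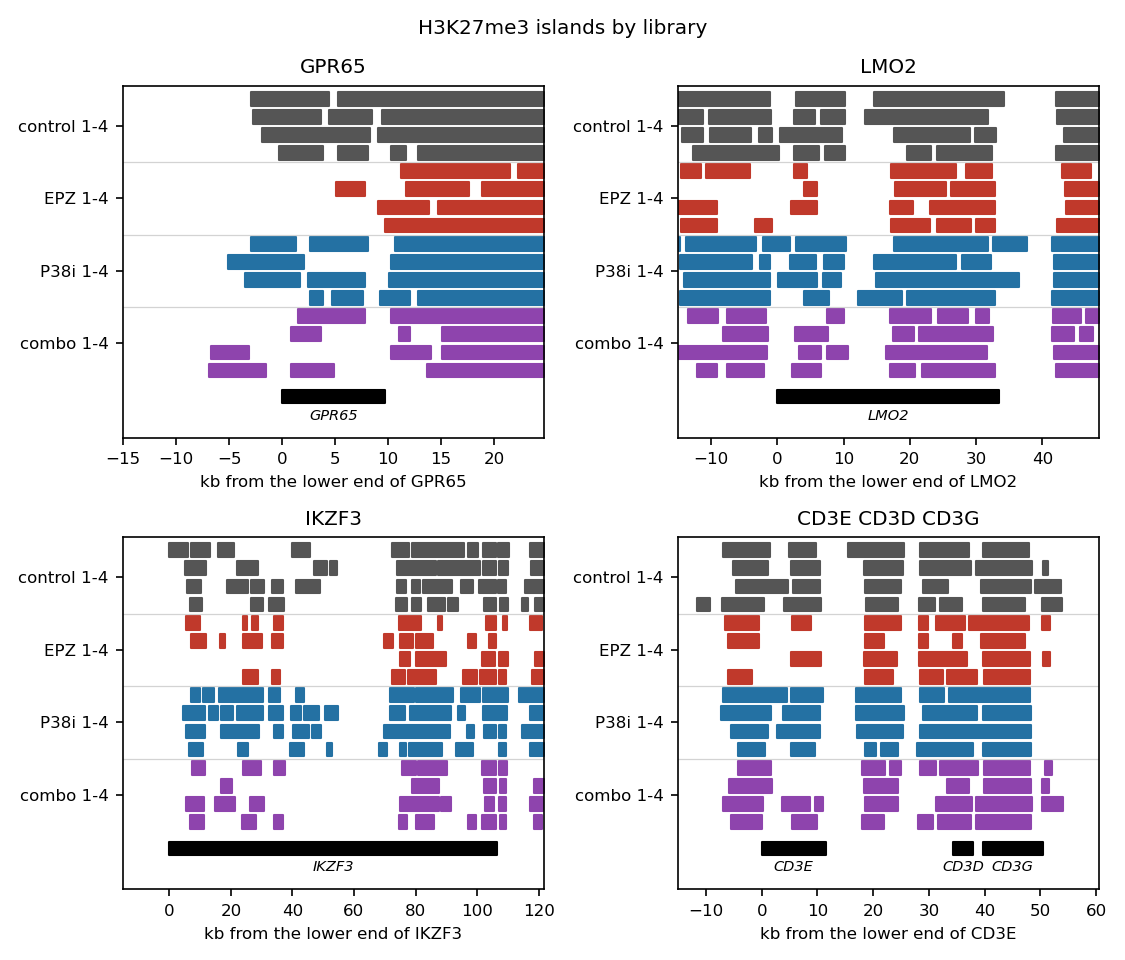
Islands of each library (bars, 1 row per library, replicates 1 to 4 from top within each group) around GPR65, LMO2, IKZF3 and the CD3 cluster, with distance in kb from the lower-coordinate end of the first gene named. In EPZ the islands over sections 1 and 2 of GPR65 and over section 2 of LMO2 are absent and those over CD3E are fewer, while the islands over CD3D and CD3G are present in every group.

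The single contrasts split this effect. EPZ against control had 3 listed genes lower (16.7% of 18, against 3.05% of all tested genes lower and 3.17% called in either direction). GPR65 differed by -65.8 points (SE 10.6, adjusted p = 0.0105), LMO2 by -24.5 (SE 5.19, adjusted p = 0.0271) and CD3E by -38.9 (SE 9.06, adjusted p = 0.0359). IKZF3, at -19.3 points (adjusted p = 0.104), did not pass. In all 4 the EPZ libraries lay below the control libraries without overlap, as in 7.84% of all tested genes. With only the 8 libraries of these 2 groups fitted, GPR65 alone passed, with lists of equal length none did, and GPR65 and LMO2 did, without CD3E, with no flank, a flank of 1 kb, covered length as a covariate, without EPZ 4 or without the 3 libraries of narrowest islands. IKZF3 joined the other calls without control 4 or without P38i 4. GPR65 was also the only call left without EPZ 1, without EPZ 2, or without control 1, 2 or 3.

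Combo against control had 1 listed gene lower, GPR65, at -50.2 points (SE 10.6, adjusted p = 0.0355), where 1.44% of all tested genes were lower and 1.68% called. Its groups did not overlap, as in 6.46% of all. LMO2 (-15.2 points, adjusted p = 0.136), IKZF3 (-17.2, adjusted p = 0.162) and CD3E (-21.6, adjusted p = 0.223) did not pass. This call was lost with no flank, with a flank of 5 kb, with islands of at least 2 kb, with lists of equal length, with only the 2 groups fitted, and without any 1 of the 4 combo libraries or of control 1, 2 or 3.

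Combo against P38i shares no library with EPZ against control and asks the same question in the presence of the p38 inhibitor. No listed gene passed, where 1.92% of all tested genes did. An unadjusted p under 0.05 was seen in 5 of the 18 listed genes and in 830 of all 4105 tested genes. LMO2 differed by -20.4 points (adjusted p = 0.0605), with no overlap, as in 10% of all tested genes. IKZF3 differed by -23.1 points (adjusted p = 0.0798), CD3E by -26.5 (adjusted p = 0.138) and GPR65 by -28.7 (adjusted p = 0.153). Without P38i 4, CD3E, IKZF3 and LMO2 passed, and without control 4 LMO2 did. Set side by side, 12 of 18 genes were negative in both comparisons (66.7%, against 62.6% of all tested genes), 1 was positive in both and 5 had opposite signs (27.8%, against 24.0%).

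**Figure D5:**
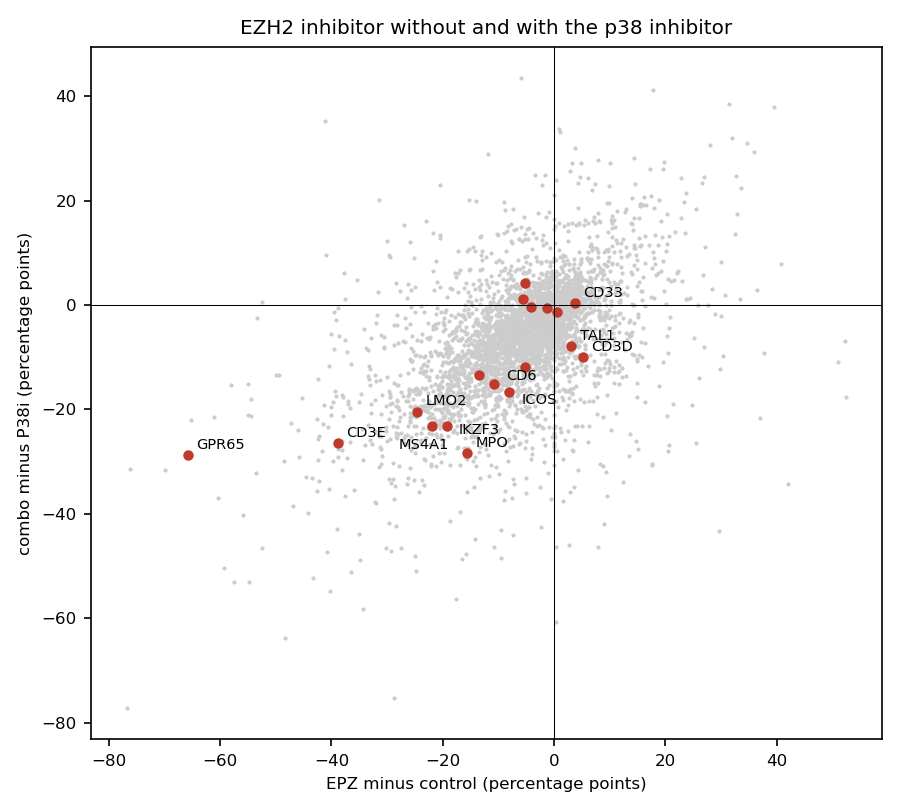
Difference in percent covered for EPZ minus control (x axis, percentage points) and combo minus P38i (y axis, percentage points), comparisons that share no library, for the 18 listed genes tested (red) and all 4105 tested genes (grey). GPR65, CD3E, LMO2, IKZF3 and MS4A1 lie in the lower left, within the spread of the grey points, and CD33 is the only listed gene above 0 on both axes.

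The p38 inhibitor moved no listed gene past the threshold. Against control, none of 18 passed in P38i (lowest adjusted p = 0.377), where 0.292% of all tested genes did. An unadjusted p under 0.05 was seen in 2 of the 18 and in 416 of all 4105 tested genes. MPO differed by 35.8 points (SE 13.5, adjusted p = 0.399) with P38i above control in every library, as in 3.24% of all tested genes, and TAL1 by 19.2 points (SE 6.96, adjusted p = 0.377). In the comparison of the 8 libraries with the p38 inhibitor (P38i and combo) against the 8 without it, none passed (lowest adjusted p = 0.220, background 0.122%). MPO averaged 63.1% with and 33.7% without it, and TAL1 18.6 and 4.87%. These were the only 2 of the 18 with an unadjusted p under 0.05, which 544 of all 4105 tested genes had.

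Combo against EPZ gave no call among the 18 (lowest adjusted p = 0.883, none with an unadjusted p under 0.05), and none among all tested genes either (0%, 224 of 4105 with an unadjusted p under 0.05). The interaction, which asks whether the EZH2 inhibitor acted differently with the p38 inhibitor present, had no call in the list (lowest adjusted p = 1) and 0.0487% over all tested genes. Its only member with an unadjusted p under 0.05 was GPR65, where the difference was -65.8 points without and -28.7 with the p38 inhibitor, an interaction of 37.1 points (SE 15.0, adjusted p = 1). For the interaction, 141 of all 4105 tested genes had an unadjusted p under 0.05. At this spread the data did not separate the differences of GPR65.

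The wider list lay near the background. Of its 43 tested genes, 6 were lower with the EZH2 inhibitor (13.95%, against 15.6% of all tested genes) and none higher, and the median difference was -5.04 points, against -4.84 over all. MRC1, the macrophage mannose receptor, went from 44.3% ± 5.47 without to 29.2% ± 5.42 with the inhibitor (SD, n = 8 each, adjusted p = 0.00861). Its sides did not overlap, as in 1.56% of all tested genes. MEIS1, a homeobox factor of stem cells, went from 49.96% ± 11.05 to 30.7% ± 7.71 (adjusted p = 0.0181). Of the B cell genes, the complement receptor CR2 went from 89.7% ± 5.41 to 73.7% ± 10.5 (adjusted p = 0.0223) and the B lineage factor EBF1 from 77.1% ± 5.39 to 66.3% ± 5.42 (adjusted p = 0.0297). C1QB, a complement subunit of macrophages, went from 27.2% ± 24.3 to 4.91% ± 10.1 (adjusted p = 0.0359). By group, C1QB averaged 10.2% in control, 2.61% in EPZ, 44.3% in P38i and 7.21% in combo. It differed by -7.58 points in EPZ against control (adjusted p = 0.696) and by -37.1 in combo against P38i (adjusted p = 0.0623). The pooled difference of C1QB thus lay mainly between P38i and combo. No gene of the wider list passed in P38i or combo against control, or in combo against P38i or EPZ.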

How the data were processed

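The deposited data are 16 lists of H3K27me3 islands on hg38, 1 per library; the authors made them from ChIPmentation reads with the aligner Bowtie2 2.3.4.1 and the island caller SICER, beside SAMtools 1.2, bedtools 2.28.0, Picard, cutadapt, Trim Galore and FastQC, per the submitters' processing notes. The deposited values are start and end positions only, with no other unit, score or count. Step order and caller settings were not given in the sources used here. Islands started on multiples of 200 bp and lay at least 800 bp apart. The 16 IgG libraries are not used here.

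The percent of each gene span ± 2.5 kb covered was computed (Python 3.11.15, numpy 2.4.6, pandas 2.3.3), checked against bedtools 2.31.1, and fitted in R 4.3.3 with limma 3.58.1 (robust and trend options, 4 group means, no covariate), which was also tested on simulated data. Genes averaging 5 to 95% were tested in 8 contrasts. Gene spans and promoters came from RefSeq, GRCh38.p14. A gene of the wider list is not reported here. The gene list and the wider list were chosen with earlier results of these data known. Named with every library's value were members past the threshold and, per class, the tested member with the largest moderated t for the EZH2 inhibitor and the one most covered. Same-numbered libraries did not deviate together (24 correlations from -0.15 to 0.18, 2 over 0.1), so numbers were not used as pairs. Alternatives were other flanks and filters, a covariate, a replicate block, a transformation, wider islands, equal lists, 2-group fits and each library left out.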

Additional observations from a re-analysis of the deposited data

Results flagged for a closer look

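In 6 of the 40 sets of 4 libraries examined (10 genes in 4 groups), 1 library lay far from the other 3 by Dixon's criterion, which chance gives in about 1 set of 20. CTLA4 was at 91.7% in P38i 4, against 98.8 to 100% in the others. MS4A1 was at 41.2% in EPZ 1, against 70.3 to 75.6%. IKZF1 was at 88.6% in P38i 4, against 94.6 to 95.3%. IKZF3 was at 30.8% in control 4, against 47.3 to 49.8%. CD33 was at 97.1% in control 1, against 88.8 to 89.4%, and SLAMF1 at 98.2% in control 1, against 87.7 to 88.6%. EPZ 1 and control 4 are 2 of the 3 libraries with the narrowest islands, and control 1 has the widest (median 7.4 kb). Their part in these values was not tested.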

How the results depend on the processing

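The 4 genes lower with the EZH2 inhibitor kept direction and call under every alternative except lists of equal length, which gave 0. Leaving out 1 library gave 4 to 6 calls, and leaving out the 3 libraries of narrowest islands, chosen after seeing the data, gave 4. With no filter there were 5, THEMIS added. EPZ against control (3 calls) gave 1 with only its groups fitted, 0 with lists of equal length and 1 to 4 with 1 library left out. Combo against control (1 call) gave 2 with covered length as a covariate (GPR65 and LMO2), 0 with its groups alone, a flank of 5 kb, no flank, islands of at least 2 kb or lists of equal length, and 0 to 2 with 1 library left out. Combo against P38i gave 0 to 3 with 1 library left out. The other 4 contrasts stayed at 0 in every alternative run. With the replicate block the listed calls were 4, 3 and 1, as without it, while calls over all genes went from 130 to 81 for EPZ and from 69 to 42 for combo, each against control.

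The difference for IKZF1, -0.94 points, turned to 3.04 with the covariate, 1.60 with lists of equal length and 0.029 without EPZ 2, in a range of -2.21 to 0.029 with 1 library left out. That for SLAMF1, -0.34 points, turned to 1.89 with the covariate, 0.018 without P38i 1, 0.40 without P38i 3, 0.075 without combo 2 and 0.93 without control 1, in a range of -0.99 to 0.93. Over all genes the EZH2 inhibitor's 36 higher and 642 lower calls became 127 and 260 with the covariate and 72 and 96 with lists of equal length, where the median difference moved from -4.84 to -1.21 and -1.02 points. EPZ against control went from 5 higher and 125 lower to 4 and 10 with lists of equal length, and combo against control from 10 and 59 to 133 and 224 with the covariate. The cause of these shifts was not tested. Read depth is unknown, so the smallest island that each library could show is not known either.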
